A study of Mus musculus with 3 samples.

Results

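The forkhead box genes are a family of transcription factors, and 43 of them were found among the 22180 genes with a probe set of their own on the arrays. A gene was taken as a member when the platform annotation gave it a symbol of Fox, 1 letter from a to s, and a number. That rule used no measured value, although earlier results of these data were known when the family was chosen. Their transcripts were assayed in 3 mouse pluripotent stem cell cultures, all in N2B27 medium, with 1 Affymetrix Mouse Gene 2.0 ST array per culture. EB3, an established line of mouse embryonic stem cells (mESCs), was the source of each. In the Activin+PD culture the mESCs had received ActivinA (20 ng/ml), the ligand that activates SMAD2 and SMAD3, together with the MEK inhibitor PD0325901 (2 µM) over 64 days. In the 2i culture they had received the same dose of PD0325901 and CHIR99021 (2 µM), which inhibits GSK3 and so raises beta-catenin, over 34 days. The mouse epiblast stem cells, or mEpiSCs, were an induced derivative of EB3 that was fed ActivinA (20 ng/ml) plus bFGF (12 ng/ml), and the sources used here do not give their time in culture. All 3 cultures thus came from 1 line, the 2 mESC cultures shared the MEK inhibitor, and the Activin+PD and mEpiSC cultures shared ActivinA.

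Forkhead proteins bind DNA through a winged-helix domain, and different members act in different lineages. FOXA proteins are pioneer factors of endoderm and the midline, FOXD3 acts in the epiblast and later in the neural crest, FOXH1 carries the SMAD complexes of Nodal and Activin signalling to DNA, FOXO proteins are held out of the nucleus by AKT, and FOXM1 drives genes of mitosis. With 1 array per culture there was no replicate spread, so the differences below are sizes with no test, and the variation between cultures of 1 kind is unknown. The 3 comparisons also share arrays and are not independent of each other. As a partial measure of error, the difference given by 1 probe set varied with a standard deviation of 0.24 on the log2 scale between Activin+PD and 2i (521 genes with 2 probe sets above background). It was 0.33 between mEpiSCs and 2i (510 genes) and 0.30 between mEpiSCs and Activin+PD (526 genes). That spread covers probe sets and not cultures.

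The background of each array was set at the 95th percentile of 1400 probe sets for olfactory or vomeronasal receptors. It lay at an intensity of 45.4 in Activin+PD, at 48.2 in 2i and at 47.6 in mEpiSCs. Above it were 33 of 43 forkhead genes in Activin+PD, 32 in 2i and 35 in mEpiSCs, or 76.7%, 74.4% and 81.4%, beside 62.1%, 60.1% and 61.6% of all 22180 genes. In all, 30 members were above background on every array, 6 on 1 or 2 arrays and 7 on none. Above it on any array were thus 36 of 43 members, beside 14526 of 22180 genes. Many members stood close to background. With the 99th percentile of the same probe sets as the limit, 17, 16 and 24 members were above it in Activin+PD, 2i and mEpiSCs. All genes were not counted at that limit or by fold over background, so counts of those kinds describe the members alone. Of the 36 members above background on any array, 14 were within 2-fold of background on all 3 arrays, 14 were at least 2-fold over it on all 3, and 8 were at least 2-fold over it on some arrays and not on others. Those 8 were Foxa1, Foxa2, Foxa3, Foxb2, Foxi3, Foxj1, Foxn4 and Foxq1.

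**Figure D1:**
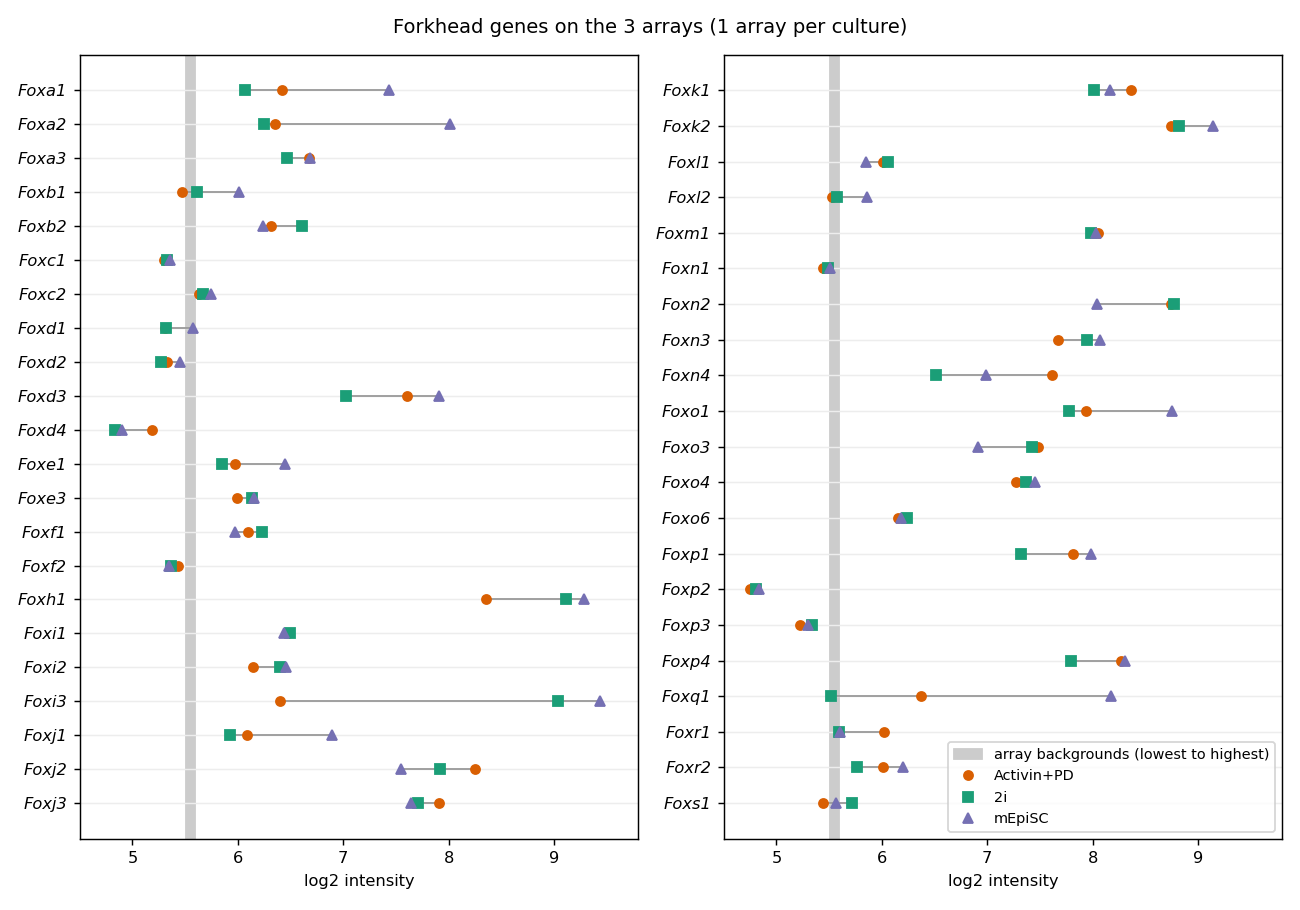
Log2 intensity of the 43 forkhead genes on the Activin+PD (circles), 2i (squares) and mEpiSC (triangles) arrays, 1 array per culture, with a grey band from the lowest to the highest array background. The widest spans are those of Foxi3, from 6.40 to 9.44, and Foxq1, from 5.52 to 8.18.

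Most expressed members differed little between the cultures. Over the 3 arrays, 5 of the 36 members spanned at least 2-fold (13.9%), namely Foxi3, Foxq1, Foxa2, Foxa1 and Foxn4, beside 12.0% of all 14526 genes above background on any array. A further 8 members spanned 1.5-fold to 2-fold and 23 less than 1.5-fold (63.9%, beside 73.9% of all genes). The median span was 0.42 on the log2 scale for the members and 0.34 for all genes. The highest of the 3 values was on the mEpiSC array for 22 of 36 members, beside 44.2% of all genes, and on the Activin+PD and 2i arrays for 7 members each, beside 27.5% and 28.3%.

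Counted over the family, Activin+PD and 2i differed at few members. Of 35 members above background on either array, 1 was at least 2-fold higher in Activin+PD (Foxn4) and 1 at least 2-fold lower (Foxi3), or 2.86% each, beside 1.37% higher and 0.818% lower of 14059 genes. The median difference was 0.061 (95% binomial interval over members -0.081 to 0.20), beside -0.0068 for all genes. With counts of 1, these shares describe single genes and not the family. At 1.5-fold the counts were 2 higher, with Foxq1 added, and 2 lower, with Foxh1 added, beside 4.53% and 2.55% of all genes.

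mEpiSCs were at least 2-fold above both mESC cultures at Foxa1, Foxa2 and Foxq1. For Foxq1 this rests on the probe set with the highest mean. Its other probe set gave 0.18 against 2i and 0.36 against Activin+PD. Against 2i, Foxa1, Foxa2 and Foxq1, or 3 of 36 members, were at least 2-fold higher (8.33%, beside 4.53% of 14202 genes) and 0 were lower (beside 4.96%). The median was 0.16 (0.017 to 0.41), beside 0.031 for all genes, and 26 of 36 members were above 0, or 72.2%, beside 53.8% of all genes. Against Activin+PD, 4 of 35 were higher (11.4%, beside 3.58% of 14397 genes), Foxa1, Foxa2, Foxi3 and Foxq1, and 0 lower (beside 5.37%). The median was 0.17 (-0.018 to 0.33), beside 0.041 for all genes, with 65.7% of members and 54.8% of all genes above 0. At 1.5-fold, 8 members were higher and 1 lower than in 2i, beside 9.51% and 10.2% of all genes, and 7 were higher and 3 lower than in Activin+PD, beside 8.72% and 10.9%. These intervals cover the spread between members and not between cultures.

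**Figure D2:**
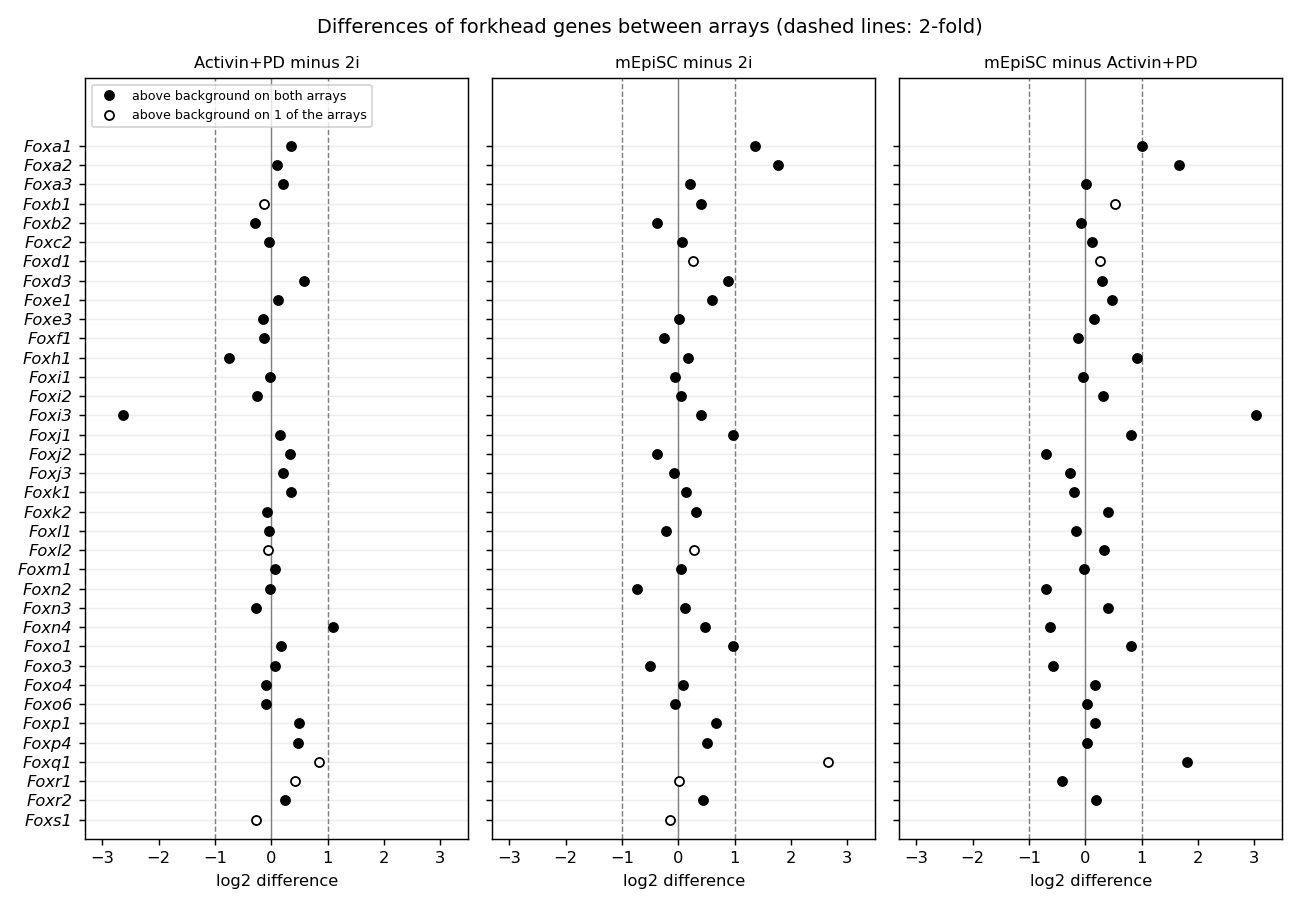
Log2 differences of the 36 forkhead genes above background on any array, in the 3 comparisons, with dashed lines at 2-fold. Filled points were above background on both arrays and open points on 1 of them, and a pair below background on both is left out. Foxi3 lies at -2.63 in the left panel and 3.04 in the right one, and at 0.41 in the middle.

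**Figure D3:**
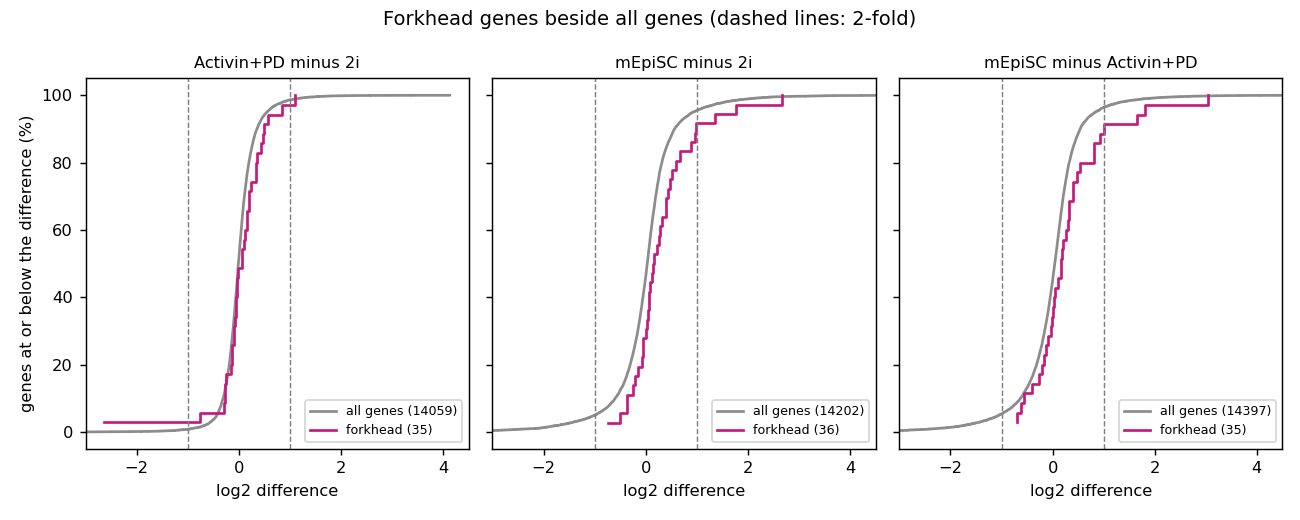
Cumulative share of genes (%) against the log2 difference for the forkhead genes and for all genes above background on either array, in the 3 comparisons, with dashed lines at 2-fold. In the middle panel the forkhead line lies to the right of that of all genes, with medians of 0.16 and 0.031.

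For 4 of the 5 members that spanned 2-fold, the bases upstream of the start site could be shown, from RefSeq promoters of build GRCm38.p6. They are shown because these members differed most and to set their upstream bases side by side. Each window holds the 250 bases before the annotated start, 5′ to 3′ on the gene's strand, and for Foxa2, which has 3 windows, the one at the outermost start. Capitals mark matches, on either strand, to a forkhead motif (TGTTTNC), a FOXH1 motif (AATNNACA), a TCF/LEF motif (CTTTGA) or a SMAD motif (CAGAC), and no matches overlapped in these windows.
Foxi3 (chr6:70956356-70956605, plus strand): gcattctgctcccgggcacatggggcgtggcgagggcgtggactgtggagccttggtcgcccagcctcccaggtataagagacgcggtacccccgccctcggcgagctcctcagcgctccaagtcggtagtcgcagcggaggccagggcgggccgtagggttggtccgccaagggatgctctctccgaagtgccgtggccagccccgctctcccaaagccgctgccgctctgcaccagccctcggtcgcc
Foxa1 (chr12:57546112-57546361, minus strand): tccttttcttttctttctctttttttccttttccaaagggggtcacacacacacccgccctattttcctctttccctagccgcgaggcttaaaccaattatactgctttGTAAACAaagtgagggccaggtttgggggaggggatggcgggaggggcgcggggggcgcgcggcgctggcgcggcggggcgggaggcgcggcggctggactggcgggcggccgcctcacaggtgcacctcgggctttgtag
Foxa2 (chr2:148046970-148047219, minus strand): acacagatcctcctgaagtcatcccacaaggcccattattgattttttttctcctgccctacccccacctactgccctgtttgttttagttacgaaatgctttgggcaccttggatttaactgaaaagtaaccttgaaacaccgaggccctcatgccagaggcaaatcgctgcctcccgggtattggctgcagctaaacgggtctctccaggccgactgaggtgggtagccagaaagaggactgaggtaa
Foxn4 (chr5:114273762-114274011, minus strand): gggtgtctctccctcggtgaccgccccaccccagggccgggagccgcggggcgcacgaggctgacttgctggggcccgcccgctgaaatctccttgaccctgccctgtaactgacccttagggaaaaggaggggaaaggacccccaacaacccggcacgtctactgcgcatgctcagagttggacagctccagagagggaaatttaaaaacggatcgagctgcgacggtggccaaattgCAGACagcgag

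The windows of Foxi3 and Foxa2 held none of the 4 motifs. Foxa1 had 1 forkhead match on the reverse strand, 141 to 135 bases before its start, and Foxn4 had 1 SMAD match 11 to 7 bases before its start. Such matches are common, with the forkhead motif in 17.8% of all 32851 windows of this length, the FOXH1 motif in 10.9%, the TCF/LEF motif in 13.8% and the SMAD motif in 42.2%. Of 33 windows of the 28 forkhead genes in the table, 7 held the forkhead motif (21.2%), 3 the FOXH1 motif (9.09%), 1 the TCF/LEF motif (3.03%) and 9 the SMAD motif (27.3%). The G and C content was 70.4% for Foxi3, 62.0% for Foxa1, 50.8% for Foxa2 and 62.8% for Foxn4, beside a median of 52.4% over all windows.

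Foxi3, a factor of the cranial placodes and pharyngeal arches of the embryo, showed the largest difference of the family. Its intensity was 84.6 in Activin+PD, 524 in 2i and 694 in mEpiSCs. The Activin+PD array alone was low, and its value was only 1.86-fold over background. The folds against Activin+PD therefore rest on a value near background. The log2 difference was -2.63 for Activin+PD minus 2i, so the level in 2i was 6.20-fold that in Activin+PD. It was 3.04 for mEpiSC minus Activin+PD, or 8.21-fold, and 0.41 for mEpiSC minus 2i. Foxi3 is thus apart between the 2 cultures that share the MEK inhibitor, and also between the 2 that share ActivinA. As these are bulk samples, fewer cells with the transcript and less of it per cell cannot be told apart here or below. The related genes did not follow. Foxi1, a factor of ion-transporting cells of the inner ear and kidney, stood at 89.0, 90.3 and 86.8 in Activin+PD, 2i and mEpiSCs, and Foxi2 at 70.8, 84.6 and 88.0, and both were within 2-fold of background.

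Foxa2, a pioneer factor of definitive endoderm, node and floor plate, was highest in mEpiSCs. Its intensity was 81.7 in Activin+PD, 76.0 in 2i and 258 in mEpiSCs. Both mESC values of Foxa2 were near background, at 1.80-fold over it in Activin+PD and 1.58-fold in 2i. Its mEpiSC value was 3.39-fold that of 2i (log2 difference 1.76) and 3.16-fold that of Activin+PD (1.66), while the mESC arrays differed by 0.10. Foxa1, which shares much of its binding with FOXA2, gave the same order of mEpiSC over both mESC arrays, with 85.6 in Activin+PD, 66.9 in 2i and 172 in mEpiSCs. That was 2.58-fold over 2i (1.37) and 2.01-fold over Activin+PD (1.01), the latter at the edge of the 2-fold limit and below it after median centring (0.98). The mESC values of Foxa1 were also near background, at 1.88-fold over it in Activin+PD and 1.39-fold in 2i. Foxa3, the third gene of the group, which acts mainly in liver and gut, did not share the pattern and stood at 102, 88.5 and 103.

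The definitive endoderm markers Sox17, Gata6, Cxcr4, Cer1, Hhex and Eomes gave a higher total in mEpiSCs, as Foxa1 and Foxa2 did. Above background were 4 of 6 in Activin+PD and 2i and 6 of 6 in mEpiSCs, with Gata6 and Cer1 not above it on the mESC arrays, and their summed intensity was 474, 448 and 2110.2 in Activin+PD, 2i and mEpiSCs. Most of that total lay in Cer1, at 854 in mEpiSCs, and Eomes, at 133 in 2i and 692 in mEpiSCs, while Sox17 and Hhex were within 2-fold of 2i, at 0.50 and 0.13. Their part in the Foxa1 and Foxa2 values was not tested. Of 15 endoderm and midline genes tied to FOXA2, 14 were on the array and 10 could be compared between mEpiSCs and 2i. Of these, 4 were at least 2-fold higher in mEpiSCs and 0 lower (median 0.36), beside 4.53% and 4.96% of all genes (median 0.031). Cer1, a secreted Nodal antagonist, was higher by at least 4.15 and Gata6 stood at 136 in mEpiSCs against a 2i value not above background, with Cxcr4 at 1.18 and Gsc at 1.15. Against Activin+PD, Cer1 and Gata6 were 2-fold higher of 10 compared (median 0.41), by at least 4.23 and at least 1.59. Among all genes 3.58% were higher and 5.37% lower there (median 0.041). None of 8 was apart between Activin+PD and 2i (median -0.014), beside 1.37% higher and 0.818% lower of all genes (median -0.0068). Shh, Alb, Ttr and Spink1 were not above background on any array. Sox17, Gata6, Cxcr4, Cer1 and Hhex are on this list and among the markers above, so the lists repeat the same values. Cer1 and Gsc are also counted among the targets of FOXH1 and SMADs below.

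Foxq1, a factor of hair follicles and of epithelial and carcinoma cells, stood at 82.7 in Activin+PD, 45.8 in 2i and 289.5 in mEpiSCs. The 2i value was not above background, so differences from it are bounds set by the 2i background. On the log2 scale mEpiSCs were higher than 2i by at least 2.59 and higher than Activin+PD by 1.81, and Activin+PD was at least 1.71-fold higher than 2i. A second probe set of Foxq1 gave 48.0, 54.5 and 61.7, all above background, with mEpiSC log2 differences of 0.18 from 2i and 0.36 from Activin+PD and an Activin+PD difference of -0.18 from 2i. The 2 probe sets therefore disagree on the size of the mEpiSC differences and on the direction between the mESC cultures. Their mean was 1.42 higher in mEpiSCs than in 2i, 1.08 higher in mEpiSCs than in Activin+PD and 0.34 higher in Activin+PD than in 2i.

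Foxn4, a factor of retinal progenitors and spinal interneurons, was the 1 member at least 2-fold higher in Activin+PD than in 2i. It stood at 196 in Activin+PD, 91.6 in 2i and 127 in mEpiSCs. On the log2 scale Activin+PD was higher than 2i by 1.10, close to the 2-fold limit. The 2i value was near background, at 1.90-fold over it. In mEpiSCs the log2 difference was 0.47 against 2i and -0.63 against Activin+PD. The other FOXN genes went other ways. Foxn2 stood at 429, 437 and 263 in Activin+PD, 2i and mEpiSCs and was lower in mEpiSCs, at -0.73 against 2i and -0.70 against Activin+PD. Foxn3, a repressor linked to the DNA damage checkpoint, stood at 204, 247 and 269, and Foxn1, the factor of thymic epithelium, was not above background on any array.

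Foxd3, which is needed to keep epiblast cells pluripotent, stood at 195 in Activin+PD, 130.4 in 2i and 241 in mEpiSCs. It was lowest in 2i, by 0.58 against Activin+PD and 0.88 against mEpiSCs, and within 2-fold throughout. The neural crest markers Sox10, Tfap2a, Pax3, Ets1, Snai2 and Twist1, listed because FOXD3 also marks that lineage, had a summed intensity of 367, 388 and 469 in Activin+PD, 2i and mEpiSCs. They went both ways between mEpiSCs and 2i, with Twist1 at 1.52, Snai2 at -0.78 and Tfap2a not above background in mEpiSCs, and their part in the Foxd3 values was not tested. Foxd1 barely passed background in mEpiSCs, at 47.7, and Foxd2 and Foxd4 did not pass it on any array.

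Foxh1, the DNA-binding partner of SMAD2 and SMAD3, was, besides Foxi3, the 1 member that was lowest in Activin+PD and spanned more than 1.5-fold. It stood at 328 in Activin+PD, 552 in 2i and 622 in mEpiSCs. On the log2 scale Activin+PD stood at -0.75 against 2i, and mEpiSCs at 0.93 against Activin+PD and 0.17 against 2i, so Foxh1 lay just short of 2-fold. Among its 9 partner genes, of which 8 could be compared, Tdgf1, the Nodal co-receptor, stood at 1136, 462 and 2507 and the receptor gene Acvr1b at 182, 419 and 167 in Activin+PD, 2i and mEpiSCs. They were the partner genes 2-fold apart from 2i in both Activin+PD (median -0.069) and mEpiSCs (median 0.020), 1 higher and 1 lower each time. Tdgf1 was the 1 apart between mEpiSCs and Activin+PD, at 1.14 (median 0.14). Among all genes, 1.37% were higher and 0.818% lower in Activin+PD than in 2i, and 4.53% and 4.96% in mEpiSCs than in 2i. For mEpiSCs against Activin+PD the shares were 3.58% and 5.37%. With 8 genes compared, counts of 1 describe single genes and not the list. Of 11 targets shared by FOXH1 and SMADs, 5 reached 2-fold higher values in Activin+PD than in 2i and 0 reached 2-fold lower ones (median 0.43), beside 1.37% and 0.818% of all genes, while Foxh1 itself was lower. Lefty1 led at 2.64, followed by Otx2 at 2.22 or more, Lefty2 at 2.22 and Pmepa1 at 1.06. In mEpiSCs 9 of 12 were at least 2-fold higher than in 2i and 1 at least 2-fold lower (median 1.76), beside 4.53% and 4.96% of all genes, with Cer1 at 4.15 or more, Mixl1 at 3.37, Otx2 at 2.78 or more and Lhx1 at 2.70, and Lefty2 at -1.52. Against Activin+PD, 5 of 12 were at least 2-fold higher in mEpiSCs and 2 at least 2-fold lower (median 0.65), beside 3.58% and 5.37% of all genes, the latter being Lefty2 at -3.74 and Lefty1 at -1.63.

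The FOXO genes are the insulin and growth factor branch of the family. Foxo1 stood at 246 in Activin+PD, 219 in 2i and 432 in mEpiSCs, so the mEpiSC value was higher by 0.98 against 2i and 0.81 against Activin+PD, just under 2-fold. Its second probe set gave 112, 123 and 146, a difference of 0.25 for mEpiSC minus 2i. Foxo3 went the other way, with 179, 171 and 121 and an mEpiSC difference of -0.51 from 2i and -0.57 from Activin+PD. Foxo4 held at 155, 165 and 175, and Foxo6, mainly known from brain, at 71.0, 75.6 and 72.6.

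Few of the genes that regulate FOXO proteins were 2-fold apart, as was the case for all genes. None of 31 compared was 2-fold apart between Activin+PD and 2i (median 0.033), beside 1.37% higher and 0.818% lower of all genes. Of 33 compared between mEpiSCs and 2i only Irs1, an adaptor of the insulin receptor, was 2-fold apart, beside 4.53% higher and 4.96% lower of all genes. Irs1 was higher in mEpiSCs by at least 1.20 (list median 0.052). Against Activin+PD, Irs1 was higher in mEpiSCs by at least 1.29 and the PI3-kinase gene Pik3cb was at -1.05 (33 compared, median 0.037). The shares of all genes there were 3.58% higher and 5.37% lower. Of 27 FOXO target genes compared, 4 were at least 2-fold lower in mEpiSCs than in 2i and 1 at least 2-fold higher, with a median of -0.46, beside 4.96% lower and 4.53% higher among all genes. Klf2 stood at -3.25, Sesn3 at -1.39, Rbl2 at -1.36 and Sesn1 at -1.36, whereas Bcl2l11, a gene of apoptosis, was at 1.75. Klf2 is also a gene of the naive pluripotency network. Against Activin+PD the same list had 3 of 28 at least 2-fold lower in mEpiSCs, Klf2 at -3.29, Rbl2 at -1.54 and Sesn1 at -1.35, and Bcl2l11 at 1.24 (median -0.17), and 0 of 28 were apart between Activin+PD and 2i (median -0.031). Among all genes 3.58% were higher and 5.37% lower in the former comparison, and 1.37% higher and 0.818% lower in the latter.

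Foxp1, a repressor whose splicing is known to differ between pluripotent and differentiated cells, stood at 225 in Activin+PD, 160 in 2i and 253 in mEpiSCs. It was lowest in 2i, by 0.49 against Activin+PD and 0.66 against mEpiSCs. The single probe set of the gene does not separate its isoforms. Foxp4 had the same order, with 309, 222 and 317 and differences from 2i of 0.48 in Activin+PD and 0.52 in mEpiSCs. Foxp2 and Foxp3, known from neurons and regulatory T cells, were not above background on any array on their own probe sets.

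Several members stood well above background on all arrays with small differences. Foxm1, the mitotic regulator, stood at 265, 253 and 262 in Activin+PD, 2i and mEpiSCs, a span of 1.05-fold. Of its targets, 0 of 25 reached 2-fold in any of the 3 comparisons, beside 0.818% to 5.37% of all genes in a given direction and comparison. The medians of these targets were 0.033 between Activin+PD and 2i, -0.21 between mEpiSCs and 2i and -0.23 between mEpiSCs and Activin+PD, beside -0.0068, 0.031 and 0.041 for all genes. Foxk1 and Foxk2, which repress autophagy genes, stood at 330, 259 and 287 and at 427, 452 and 565. Foxj3 stood at 240, 209 and 199. Foxj2 spanned 1.63-fold, at 304, 242 and 187, with mEpiSCs at -0.70 against Activin+PD. A second, dim probe set of Foxj2 was not above background on any array.

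Foxj1, the master regulator of motile cilia, was just under 2-fold higher in mEpiSCs than in 2i, at 67.9 in Activin+PD, 60.8 in 2i and 119 in mEpiSCs, or 0.97 against 2i and 0.81 against Activin+PD. Of 13 cilia genes listed with it and compared with 2i, 0 were at least 2-fold higher in mEpiSCs and 2 at least 2-fold lower (median -0.053), Rsph4a at -2.24 and Rfx2 at -2.15. Of all genes, 4.53% were higher and 4.96% lower. Against Activin+PD, Rfx3 was at 1.03 while Rsph4a was at -2.77 and Rfx2 at -1.81 (median 0.092), and 0 of 12 were 2-fold apart between Activin+PD and 2i (median -0.12). Of the 13 corepressors of forkhead factors on the array, such as the Groucho gene Tle1, 0 were 2-fold apart in any of the 3 comparisons (medians -0.012, 0.13 and 0.22 for Activin+PD minus 2i, mEpiSC minus 2i and mEpiSC minus Activin+PD). Among all genes, 0.818% to 5.37% were 2-fold apart in a given direction and comparison. Counts of 0 among so few genes therefore do not set a list apart from all genes.

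**Figure D4:**
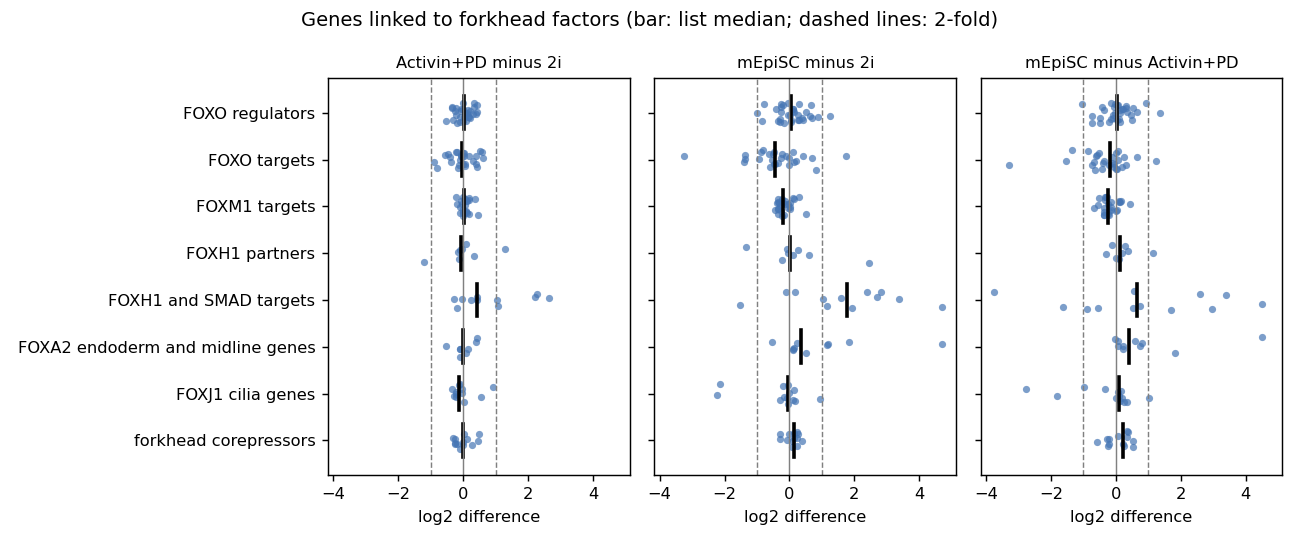
Log2 differences of genes linked to forkhead factors in the 3 comparisons, 1 point per gene above background on either array, with a bar at the list median and dashed lines at 2-fold. The targets of FOXH1 and SMADs have the highest median in each panel, 0.43, 1.76 and 0.65 from left to right.

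The remaining expressed members lay near background. Foxb2, a factor of the embryonic brain, stood at 79.8, 97.8 and 75.4 in Activin+PD, 2i and mEpiSCs. Foxe1, the thyroid factor, stood at 62.6, 57.7 and 87.3 and was higher by 0.60 in mEpiSCs than in 2i, while its second probe set passed background in mEpiSCs alone, at 47.7. Foxe3, Foxf1, Foxl1, Foxc2 and Foxr2 passed background on all 3 arrays with intensities between 49.5 (Foxc2 in Activin+PD) and 75.1 (Foxf1 in 2i). Foxb1, Foxl2, Foxr1 and Foxs1 passed it on 1 or 2 arrays, with a highest value of 64.8 for Foxr1 in Activin+PD. Not above background on any array were Foxc1, Foxd2, Foxd4, Foxf2, Foxn1, Foxp2 and Foxp3, and no difference is given for them.

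The markers of the cultures followed their titles, although the tissue label names mESCs for all 3 arrays. The summed intensity of 6 naive markers, among them Zfp42 and Tfcp2l1, was 7178, 6148 and 306 in Activin+PD, 2i and mEpiSCs. That of 6 primed markers such as Fgf5 and Otx2 was 1122, 1115 and 6863. Pou5f1, Sox2, Nanog and Sall4 were above background on every array, with sums of 9228, 7925 and 3508. In mEpiSCs against 2i, Nanog was at -2.0 and Sox2 at -1.17, while Pou5f1 was at 0.15 and Sall4 at -0.09. Between Activin+PD and 2i the primed markers went both ways, with Fgf5 at 1.48 and Otx2 at 2.22 or more, and Dnmt3b at -0.60 and Fst at -0.60. Of 8 fibroblast markers, 5 were above background on each array, with summed intensities of 466, 458 and 533, and Dcn, Lum and Postn were not above it on any. Beside this, 62.1%, 60.1% and 61.6% of all genes were above background. The 5 were dim, from 50.3 (Col1a2 in Activin+PD) to 120 (Col1a1 in mEpiSCs). Of 6 primitive endoderm markers, 5 were above background on each array, with sums of 1319, 947 and 1002 and Sox7 not above it. Most of each sum was Sparc, at 872, 588 and 592.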

How the data were processed

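The deposited table held 1 intensity per probe set and array, on a linear scale from the values, with a lowest value near 19 on each array. The submitters' processing notes name RMA, and the series' design text names GeneSpring GX 11.5. RMA equalises the distributions of the arrays, which hides any change in RNA content of the cells, and a constant added before deposit would shrink the folds of dim genes. Log2 of each intensity was taken, with no further normalisation. Of 33793 probe sets, 23521 had 1 symbol, 1814 several and 8458 none listed, and symbols were updated through Entrez identifiers for 23328. A gene was represented by its probe set with the highest mean, and 47 probe sets served the 43 forkhead genes. A gene was compared where either array was above background, and counted as apart where it differed at least 2-fold and its higher array was above background. The calling step was tested on simulated data, with changes planted in bright genes only and noise smaller than the probe set spread. That test says nothing of dimmer genes, which most forkhead genes are. All members with a value above background were named, and of each gene list up to the 4 largest differences past 2-fold in each direction. The members and lists were chosen with earlier results of these data known, and the 4 motifs after the levels were seen. The arrays' number limits the precision, and no test was run. Python 3.11.15, numpy 2.4.6, pandas 2.3.3 and scipy 1.17.1 were used. Alternatives covered the normalisation, probe sets, background, a subtracted constant, the filter and the fold.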

Additional observations from a re-analysis of the deposited data

Results flagged for a closer look

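A probe set that the annotation pairs with Ccdc22, Foxp3 and Ppp1r3f together was left out of the comparisons because it cannot be given to 1 gene, and it stood above background on every array. Its log2 level was 7.08 in Activin+PD, 7.28 in 2i and 7.45 in mEpiSCs, while the probe set paired with Foxp3 alone was at 5.22, 5.33 and 5.29, not above background on any array.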

How the results depend on the processing

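The 5 members past 2-fold were the same in each comparison with the 99th percentile as background, with the mean of all probe sets, with background as the lowest allowed value, and without the filter. Among those members these alternatives can change the difference of Foxq1 only, so the match was largely fixed in advance. The family medians stayed within their intervals under the 7 alternatives run on them, at -0.021 to 0.070 between Activin+PD and 2i, 0.091 to 0.22 between mEpiSCs and 2i and 0.11 to 0.24 between mEpiSCs and Activin+PD. With the 99th percentile as background, 17 members in Activin+PD, 16 in 2i and 24 in mEpiSCs were above it, against 33, 32 and 35. All genes were not counted at that limit. With 16 subtracted from each intensity, 2 members were 2-fold higher in Activin+PD than in 2i (Foxq1 added) and 5 higher in mEpiSCs than in 2i (Foxj1 and Foxo1 added). After quantile normalisation Foxo1 joined the latter group, and after median centring Foxa1 left the group higher in mEpiSCs than in Activin+PD. At 1.5-fold, 2 members were higher and 2 lower in Activin+PD than in 2i, 8 higher and 1 lower in mEpiSCs than in 2i, and 7 higher and 3 lower in mEpiSCs than in Activin+PD. Of the differences of Foxi3, Foxq1, Foxa2, Foxa1, Foxn4, Foxd3 and Foxp1 under these alternatives, 141 moved by less than the probe set spread or not at all, 6 moved by more and 0 of those past 2-fold changed sign. The 6 were 5 values of Foxq1, with its mean of probe sets or with 16 subtracted, and Foxi3 at -2.89 between Activin+PD and 2i with 16 subtracted. Many of the 141 could not move, so their number is no measure of robustness. The 99th percentile and the lack of a filter leave every log2 difference as it is. Among these genes, the mean of probe sets and background as the lowest value can change Foxq1 only. No paired analysis was possible because each culture had 1 array.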

Other observations

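The 2 transcripts on the opposite strand of forkhead genes, Foxd2os and Foxl2os, were not above background on any array, with intensities of 32.5, 34.8 and 39.2 for Foxd2os and 33.4, 34.3 and 42.0 for Foxl2os in Activin+PD, 2i and mEpiSCs. A probe set that the annotation pairs with both B230323A14Rik and Foxb1 stood at 39.2, 38.9 and 36.4, also not above background.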
